A study of Homo sapiens with 6 samples.

Results

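AHRR, TIPARP and NEDD9 were followed in the human ovarian cancer line SK-OV-3 after exposure to fulvic acid (FA), a water-soluble fraction of humic substances. They were chosen by gene symbol, as a pair of feedback regulators of the aryl hydrocarbon receptor (AHR) and an adhesion scaffold described as an AHR target, and all 3 were found among the 459 genes of the deposited table. The FA group was 3 libraries from cells given FA at 100 µg/ml for 48 h, and the control group was 3 libraries from cells without treatment. All 6 libraries came from wild-type cells of this single line, and the title of the study names CYP1A1 as a gene raised by FA. Separate cultures within a group are not stated in the labels. The p-values therefore cover the spread between these libraries, and that spread may be technical.

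AHR is a transcription factor that waits in the cytoplasm until a ligand binds it. It then enters the nucleus, pairs with ARNT and binds DNA at xenobiotic response elements, whose core letters are GCGTG. Among the genes it switches on are detoxifying enzymes and its own restraints. AHRR, the AHR repressor, lacks ligand control and competes with AHR for ARNT. TIPARP, also named PARP7, is an enzyme that attaches single ADP-ribose units to proteins, AHR among them, and so limits AHR activity. NEDD9, also named HEF1 or CAS-L, is a docking protein of the CAS family on which focal adhesion kinase and SRC family kinases assemble during adhesion and migration.

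Sequence near the annotated starts is shown because AHRR and TIPARP were higher and NEDD9 lower with FA, and the AHR core is a defined run of letters. Windows of 250 bases before to 50 bases after each RefSeq start (GRCh38.p14) were read from RefSeq, which gave 2 windows for AHRR, 3 for TIPARP and 3 for NEDD9. The motif GCGTG was searched on both strands, where the other strand reads CACGC. Capitals mark each match. These letters are also a form of the core of hypoxia response elements. Matches in both AHRR windows and in the first TIPARP window are shown in 30 bases each.
AHRR, start 321714, chr5:321671-321700, plus strand: gggcgggcggctcGCGTGccggggtggggc
AHRR, start 322610, chr5:322360-322389, plus strand: ggcGCGTGacaggcaggggccaccctctga
AHRR, start 322610, chr5:322555-322584, plus strand: tgcagaagggtggGCGTGtgcgcgcgttct
TIPARP, start 156674590, chr3:156674369-156674398, plus strand: acgcgagaaaggaCACGCcccctcgcggga
TIPARP, start 156674590, chr3:156674435-156674464, plus strand: tcgaacgaacgcgCACGCgcgcgcaggggg
The inner NEDD9 start had no match, and the 236 bases before it that lie outside annotated exons are given in full for contrast.
NEDD9, start 11232668, chr6:11232683-11232918, minus strand: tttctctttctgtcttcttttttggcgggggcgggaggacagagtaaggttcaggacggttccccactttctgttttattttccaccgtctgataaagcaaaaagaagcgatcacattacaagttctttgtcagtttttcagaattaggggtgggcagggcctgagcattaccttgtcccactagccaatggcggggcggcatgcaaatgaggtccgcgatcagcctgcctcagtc

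The AHRR windows held 1 and 2 matches, the 3 TIPARP windows held 2, 0 and 0, and each of the 3 NEDD9 windows held 0. The match nearest to a start lay 30 bases before the outer AHRR start, and it was the only match in any of these 8 windows to the longer form TNGCGTG. Of all 35116 RefSeq windows of this length, 36.5% held at least 1 GCGTG and 5.51% held TNGCGTG. The share with GCGTG was 57.1% in windows of at least 65% GC, 39.0% in windows between 50% and 65% GC and 11.4% in windows under 50% GC. Both AHRR windows (79.3% and 69.7% GC) and the first and second TIPARP windows (71% and 70% GC) fell in the GC-rich class. The second TIPARP window held 0 matches all the same, and the third had 38% GC. In the GC-rich class 24.7% of windows held 2 or more matches. The NEDD9 windows had 42.0%, 42.3% and 52.7% GC, classes in which most windows hold no match. The single CYP1A1 window held 1 match and the HES1 window 2. For CYP1B1 and ALDH3A1, also listed AHR targets, no window was available to search. A match is a run of letters and not a site shown to be bound, and binding further from a start would be missed.

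TIPARP (ENSG00000163659, chromosome 3, positions 156673235 to 156706770, plus strand, protein-coding) was the most abundant of the 3 genes, and it rose. Its read counts were 3349, 3776 and 4485 in FA 1, 2 and 3, against 1269, 1203 and 986 in control 1, 2 and 3. As FPKM, which scales fragments by gene length and library size, it stood at 20.6, 20.6 and 21.5 in the FA libraries, against 7.11, 6.01 and 5.06 in the control libraries. The FA libraries lay close together, the control libraries were spread, and the groups did not overlap. That holds for 100% of the 459 listed genes, which the authors selected on this same comparison, so nothing is read from it. TIPARP averaged 20.9 ± 0.52 FPKM with FA and 6.06 ± 1.02 FPKM in controls (SD, n = 3 each). In RNA from a whole culture, more transcript per cell and more cells with the transcript cannot be told apart.

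In the authors' deposited table TIPARP had a log2 fold change of 1.84 (3.59-fold) with a false discovery rate (FDR) of 1.18e-31. This was rank 22 of the 117 genes called higher, which make up 25.5% of the table. Their median log2 fold change was 1.35. A refit of the counts of all 459 genes with edgeR's quasi-likelihood test, scaled by recovered sequencing depth, gave 1.78 with a standard error of 0.15 (adjusted p = 6.9e-07). All 459 genes (100%) passed an adjusted p of 0.05 in this refit, so it measures spread and does not select. With TMM scaling over the listed genes, which by construction centres the typical listed gene, 117 genes were called higher and 81 lower, against 117 higher and 342 lower with recovered depth, and the TIPARP value was 3.02. Any FA library exceeded any control library between 2.87-fold and 4.24-fold in depth-scaled counts.

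AHRR (ENSG00000063438, chromosome 5, positions 304176 to 438291, plus strand, protein-coding) rose by nearly the same factor from a lower level. Its read counts were 547, 588 and 673 in FA 1, 2 and 3, against 173, 172 and 224 in control 1, 2 and 3. Scaled by depth, they were 13.7, 13.2 and 13.2 CPM (counts per 1000000 fragments of recovered depth) with FA, against 3.98, 3.52 and 4.72 CPM in controls. The FA libraries were again tight and control 3 was the highest control. In the authors' deposited table its log2 fold change was 1.77 (3.42-fold) with an FDR of 9.02e-26, rank 25 of the 117 higher genes. The edgeR refit gave 1.71 with a standard error of 0.17 (adjusted p = 1.9e-06). The size depended on the scale, being 2.96 with TMM over the listed genes and 1.07 with 1 added to each FPKM.

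**Figure D1:**
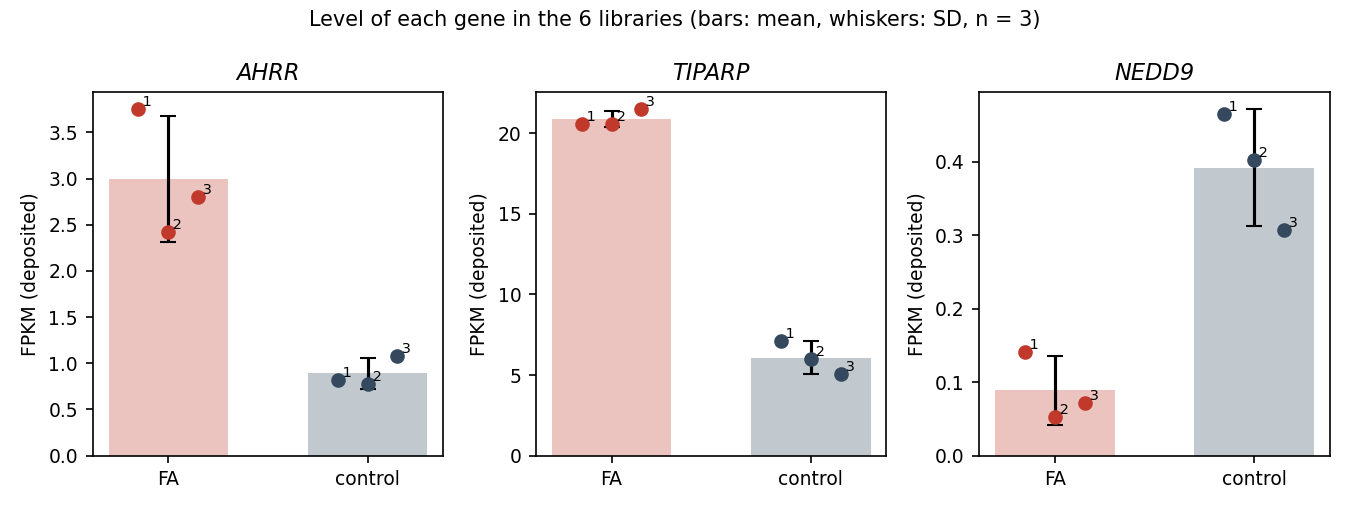
Deposited FPKM of AHRR, TIPARP and NEDD9 in each FA and control library, with points numbered by replicate, bars for the mean and whiskers for the SD (n = 3 each). TIPARP averaged 20.9 FPKM with FA and 6.06 in controls, AHRR 2.99 and 0.892, and NEDD9 0.0888 and 0.392. The groups do not overlap in any panel, and in depth-scaled counts that holds for 100% of the 459 listed genes.

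The FPKM values of AHRR were less even than its counts. They were 3.75, 2.43 and 2.80 in FA 1, 2 and 3, against 0.820, 0.774 and 1.08 in control 1, 2 and 3, with means of 2.99 ± 0.68 with FA and 0.892 ± 0.17 in controls (SD, n = 3 each). FA 1 had the lowest raw AHRR count of the FA libraries, but it also had the lowest depth. Scaled by depth it was the highest of them (13.7 CPM), as it was in FPKM, so the size of the spread differed. Across FA libraries the coefficient of variation was 22.8% in FPKM and 2.25% in depth-scaled counts.

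Dividing count by FPKM and depth gives the transcript length that the authors' FPKM implies in each library. For AHRR it was 3657, 5425 and 4728 bases in FA 1, 2 and 3, against 4857, 4551 and 4368 bases in control 1, 2 and 3. The longest was 1.48 times the shortest, and the extremes were both FA libraries. For TIPARP the implied length stayed between 4084 and 4108 bases in all 6 libraries. Of 238 genes reaching 100 counts in each library, AHRR ranked 6 by this ratio and TIPARP 165. The median ratio was 1.03, and 11.8% of these genes exceeded 1.2. GENCODE release 29 annotates 11 AHRR transcripts, of which 9 are coding and run from 435 to 5661 bases, and 7 TIPARP transcripts of 1770 to 4181 bases, all coding. How the authors' FPKM shares fragments among transcripts is not given in the sources used here, and the part of transcript use in these values was not tested. The mean implied AHRR length was 4603 bases with FA and 4592 bases in controls, and the fold change of means was 3.28 in depth-scaled counts and 3.35 in FPKM.

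**Figure D2:**
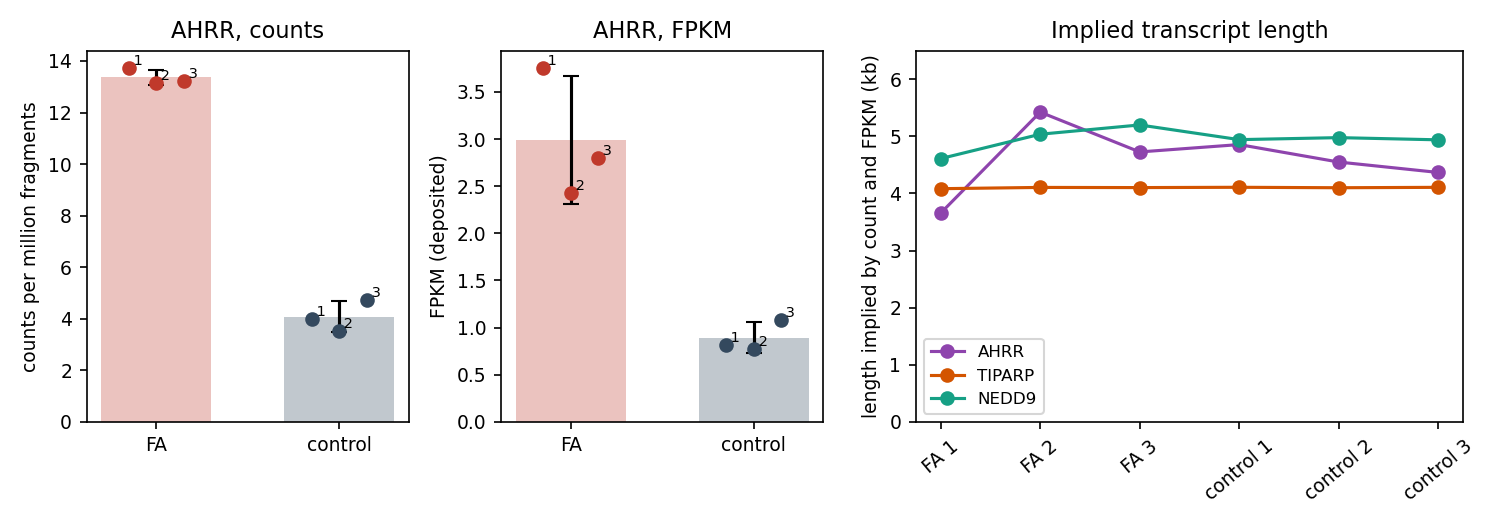
AHRR as CPM and as deposited FPKM in FA and control libraries (bars: mean, whiskers: SD, n = 3 each, points numbered by replicate), and the transcript length in kilobases implied by count, FPKM and depth for the 3 genes in each library. The FA libraries are tight in counts and spread in FPKM, and the AHRR line moves between 3657 and 5425 bases while the TIPARP line is flat.

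Counts of AHRR may include fragments of a neighbour. Of its exonic bases, 3.18% are also exonic in PDCD6, a calcium-binding protein gene on the same strand. TIPARP shares 0.733% with TIPARP-AS1 and NEDD9 shares 0.512% with AL139807.1, both on the opposite strand. Whether strand was kept in counting is not given in the sources used here.

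The ratio between both feedback genes did not differ between the groups beyond its spread. The ratio of AHRR counts to TIPARP counts was 0.163, 0.156 and 0.150 in FA 1, 2 and 3, against 0.136, 0.143 and 0.227 in control 1, 2 and 3. The FA values lay between those of control 2 and control 3, so the groups overlapped. The mean log2 ratio was -2.68 ± 0.061 with FA and -2.60 ± 0.41 in controls (SD, n = 3 each), a difference of -0.07 (two-sided exact permutation test, p = 1, where 3 against 3 allows no p below 0.1). Without control 3 the difference was 0.16, and each FA ratio lay above those of control 1 and control 2. The exact permutation p was then 0.2, the smallest that this test allows without that library, so it could not reach the threshold. The direction of the difference therefore rests on control 3, and a p that misses the threshold does not show equal induction. Per length, TIPARP FPKM exceeded AHRR FPKM 5.48-fold, 8.48-fold and 7.68-fold in FA 1, 2 and 3, against 8.67-fold, 7.76-fold and 4.68-fold in control 1, 2 and 3.

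The control libraries were tilted along GC content, and TIPARP deviated with that tilt, while AHRR did so only in control 3. The Spearman correlation of a library's deviations from its group mean with GC content, taken across 371 annotated genes averaging 50 counts or more, was 0.076, 0.15 and -0.24 in FA 1, 2 and 3, against -0.71, 0.33 and 0.64 in control 1, 2 and 3. TIPARP transcripts average 42.0% GC, below the mean of these genes (53.0%), and TIPARP deviated on the log2 scale by 0.24 in control 1, by less than 0.01 in control 2 and by -0.24 in control 3. The slope of those libraries against GC gives 0.31, -0.07 and -0.24 for a gene of its GC content. AHRR, at 62.1% GC, deviated by -0.02, -0.20 and 0.22 in control 1, 2 and 3, where the slope gives -0.25, 0.06 and 0.20. With the slope of each library removed, the standard error of the log2 fold change was 0.10 for TIPARP and 0.15 for AHRR. The SD of the log2 ratio was then 0.31 in controls and 0.10 with FA, against 0.41 and 0.061 before. AHRR then deviated by 0.23 in control 1 and by -0.25 in control 2, more than before. The slopes sum to 0 within each group, so their removal cannot move a difference between mean log2 values and does not test it. The log2 fold changes of the edgeR count model moved only slightly, from 1.78 to 1.79 for TIPARP and from 1.71 to 1.72 for AHRR.

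**Figure D3:**
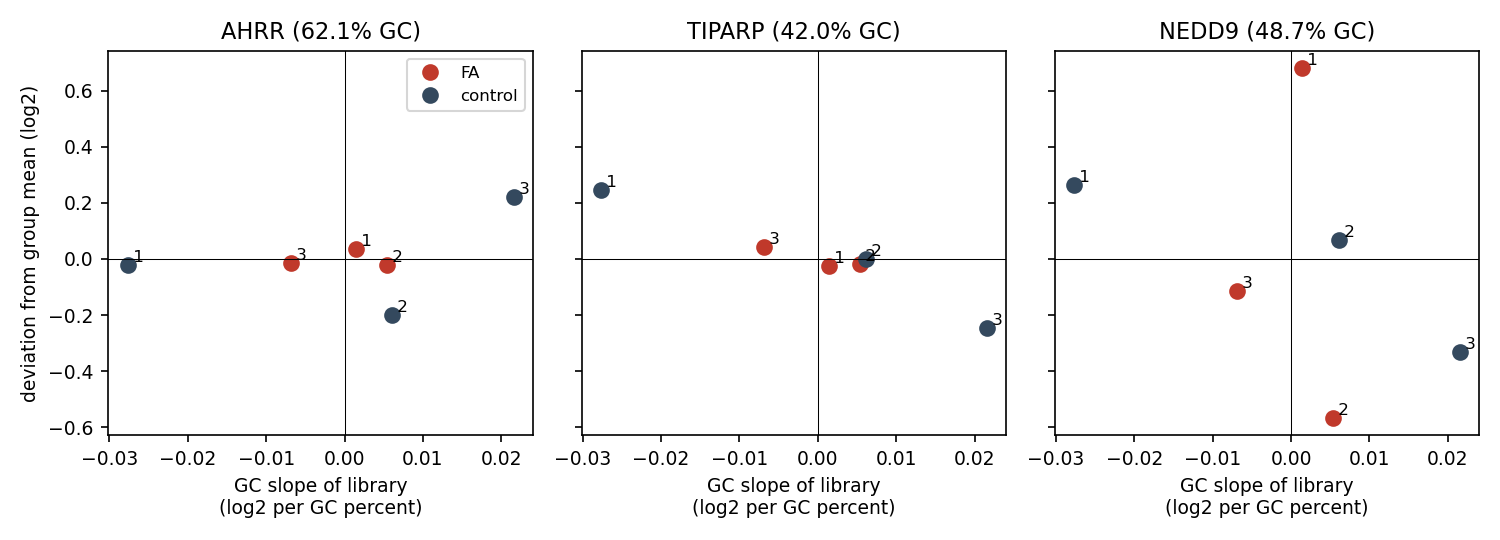
Deviation of each gene from its group mean (log2 CPM) against the slope of the library's deviations on GC content, for FA and control libraries numbered by replicate. TIPARP (42.0% GC) stands at 0.24 in control 1, which has the lowest slope, and at -0.24 in control 3, which has the highest, AHRR (62.1% GC) is highest in control 3, and the widest NEDD9 deviations are in FA 1 and FA 2.

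NEDD9 (ENSG00000111859, chromosome 6, positions 11183298 to 11382348, minus strand, protein-coding) fell, and its level was low in both groups. Its read counts were 26, 12 and 19 in FA 1, 2 and 3, against 100, 98 and 72 in control 1, 2 and 3. As FPKM it was 0.141, 0.0533 and 0.0718 in the FA libraries, against 0.465, 0.403 and 0.307 in the control libraries. FA 1 was the highest FA library and control 3 the lowest control, and 2.33-fold separated them in depth-scaled counts. NEDD9 averaged 0.0888 ± 0.046 FPKM with FA and 0.392 ± 0.080 FPKM in controls (SD, n = 3 each), and its mean level ranked 447 of the 459 listed genes, against rank 86 for TIPARP and 235 for AHRR.

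The authors' deposited table gives NEDD9 a log2 fold change of -2.13 (4.37-fold lower) with an FDR of 7.17e-06, rank 53 of the 342 genes called lower, which make up 74.5% of the table. The median of those genes was -1.36. The edgeR refit gave -2.18 with a standard error of 0.33 (adjusted p = 3.8e-05), the widest error of the 3 genes. Exact Poisson 95% intervals, which cover counting error only, ran from 0.426 to 0.955 CPM in FA 1, from 0.139 to 0.469 in FA 2 and from 0.225 to 0.583 in FA 3, against 1.87 to 2.80 in control 1, 1.63 to 2.45 in control 2 and 1.19 to 1.91 in control 3. The FA intervals lay below every control interval, and those of FA 1 and FA 2 overlapped each other. Depth-scaled counts of the groups overlap in none of the 459 listed genes, which were selected on this comparison. The separation of the NEDD9 intervals is therefore a description, and the share of listed genes with separate intervals was not computed. The size of the fall depended on the scale: it was -2.10, -1.40 and -0.35 with 0.01, 0.1 and 1 added to each FPKM. At so low a level the larger added values shrink any fold change. Scaling over the listed genes gave -0.95 with TMM (edgeR adjusted p = 0.039) and -0.96 with DESeq2 (adjusted p = 0.033), nearer the threshold. The implied NEDD9 length was 4611 to 5200 bases.

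**Figure D4:**
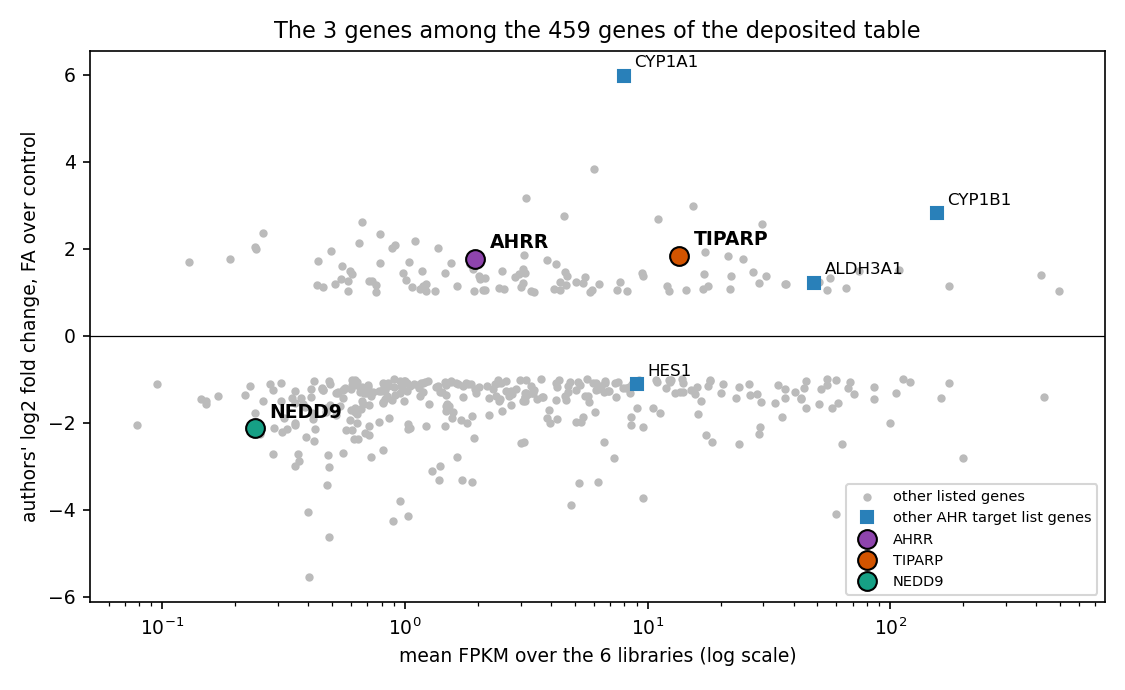
Authors' log2 fold change of FA over control against mean FPKM over the 6 libraries (log scale) for the 459 listed genes, with AHRR, TIPARP and NEDD9 as large circles and the other listed AHR targets as squares. The gap around 0 is the authors' limit of 1, CYP1A1 is the highest point at 5.98, and NEDD9 lies at the low end of expression with -2.13.

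A list of 25 AHR targets had 7 members in the table, of which 5 were called higher and 2 lower, with a median authors' log2 fold change of 1.77. Over all 459 genes 25.5% were called higher. The list was written with results of these data known, and it holds the gene of the study's title, so the count is a description. CYP1A1, which oxidises aromatic hydrocarbons, had 15.8 ± 0.58 FPKM with FA and 0.242 ± 0.044 FPKM in controls. CYP1B1, a related enzyme, had 270.4 ± 18.8 and 40.1 ± 8.46 FPKM, and ALDH3A1, an aldehyde dehydrogenase, had 67.1 ± 4.27 and 30.3 ± 5.24 FPKM in FA and control libraries (SD, n = 3 each). HES1, a transcriptional repressor, fell to 5.51 ± 1.59 FPKM with FA, against 12.5 ± 1.62 FPKM in controls (authors' FDR 0.000103), and with NEDD9 made up the 2 lower members.

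The order of AHRR and CYP1A1 differed between the groups. Per length, TIPARP stood at 1.33, 1.25 and 1.40 times the FPKM of CYP1A1 in FA 1, 2 and 3, against 37.2, 22.6 and 18.8 times in control 1, 2 and 3. AHRR stood at 0.242, 0.148 and 0.182 times the FPKM of CYP1A1 in FA 1, 2 and 3, against 4.29, 2.91 and 4.02 times in control 1, 2 and 3. AHRR was therefore above CYP1A1 in each control library and below it in each FA library, while TIPARP stayed above CYP1A1 in all 6.

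No other member of the 3 gene families was in the table. AHRR was the 1 listed member of 16 bHLH-PAS genes, the family of AHR and ARNT, TIPARP the 1 of 17 PARP genes and NEDD9 the 1 of 4 CAS genes. Of 21 genes of AHR machinery, which include AHR and ARNT, 0 were listed, and of 26 binding partners of NEDD9, among them focal adhesion kinase and SRC, 0 were listed. Only genes that passed the limits of the authors are in the table, so absence says nothing of expression, and the AHR level itself was not analysed here. Of 20 integrin genes, 2 were listed and both were lower, as were 74.5% of all listed genes. ITGB3, the beta-3 subunit, had 0.394 ± 0.059 FPKM with FA and 2.89 ± 0.12 FPKM in controls, and ITGB6, the beta-6 subunit, had 0.892 ± 0.36 and 5.12 ± 1.91 FPKM (SD, n = 3 each).

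The 5 genes most like each member were found among 370 other annotated genes averaging 50 counts or more, by the root mean square distance between centred log2 profiles over the 6 libraries. For AHRR they were FGFBP1 (distance 0.047), IL1R2 (0.10), TMC4 (0.12), ISG20 (0.12) and AL160269.1 (0.14). TIPARP, at 0.24, came at rank 12 for AHRR, and AHRR at rank 11 for TIPARP. The median distance to genes of the same direction was 0.37 for AHRR and 0.40 for TIPARP. Over all candidates, most of them of the opposite direction, it was 1.52 and 1.55. FGFBP1, a secreted carrier of fibroblast growth factors, had 37.8 FPKM with FA and 11.6 FPKM in controls on average. For TIPARP the nearest were LAMA2 (0.092), GDA (0.17), ZNF165 (0.21), RXFP1 (0.22) and CLGN (0.22), with transcripts of 38.4% to 46.7% GC, whereas those nearest to AHRR had 48.3% to 60.7% GC. LAMA2, a laminin chain, had 1.19 FPKM with FA and 0.390 FPKM in controls. For NEDD9 they were P2RY6 (0.13), ITGB6 (0.24), KITLG (0.26), SLC24A3 (0.27) and ECM1 (0.29). P2RY6, a nucleotide receptor, had 0.197 FPKM with FA and 0.949 FPKM in controls. All genes of the table were selected on these libraries, so these distances are a description.

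Recovered depth was 39900000 to 50900000 fragments in the FA libraries and 43500000 to 48800000 in the control libraries, so the ranges overlapped. Listed genes held 1.34% to 1.68% of the depth of a library. Among markers of other cell types, 0 of 6 leukocyte and 0 of 5 endothelial genes were listed, and 1 of 8 fibroblast genes, COL1A1, was called lower, with 0.214 ± 0.093 FPKM with FA and 0.469 ± 0.080 FPKM in controls. Of 10 epithelial and SK-OV-3 markers, 1 was listed, CDH1, with 22.6 ± 1.52 FPKM with FA and 11.2 ± 0.25 FPKM in controls. The other markers were not analysed here, and the part of cell identity in the changes of the 3 genes was not tested.

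**Figure D5:**
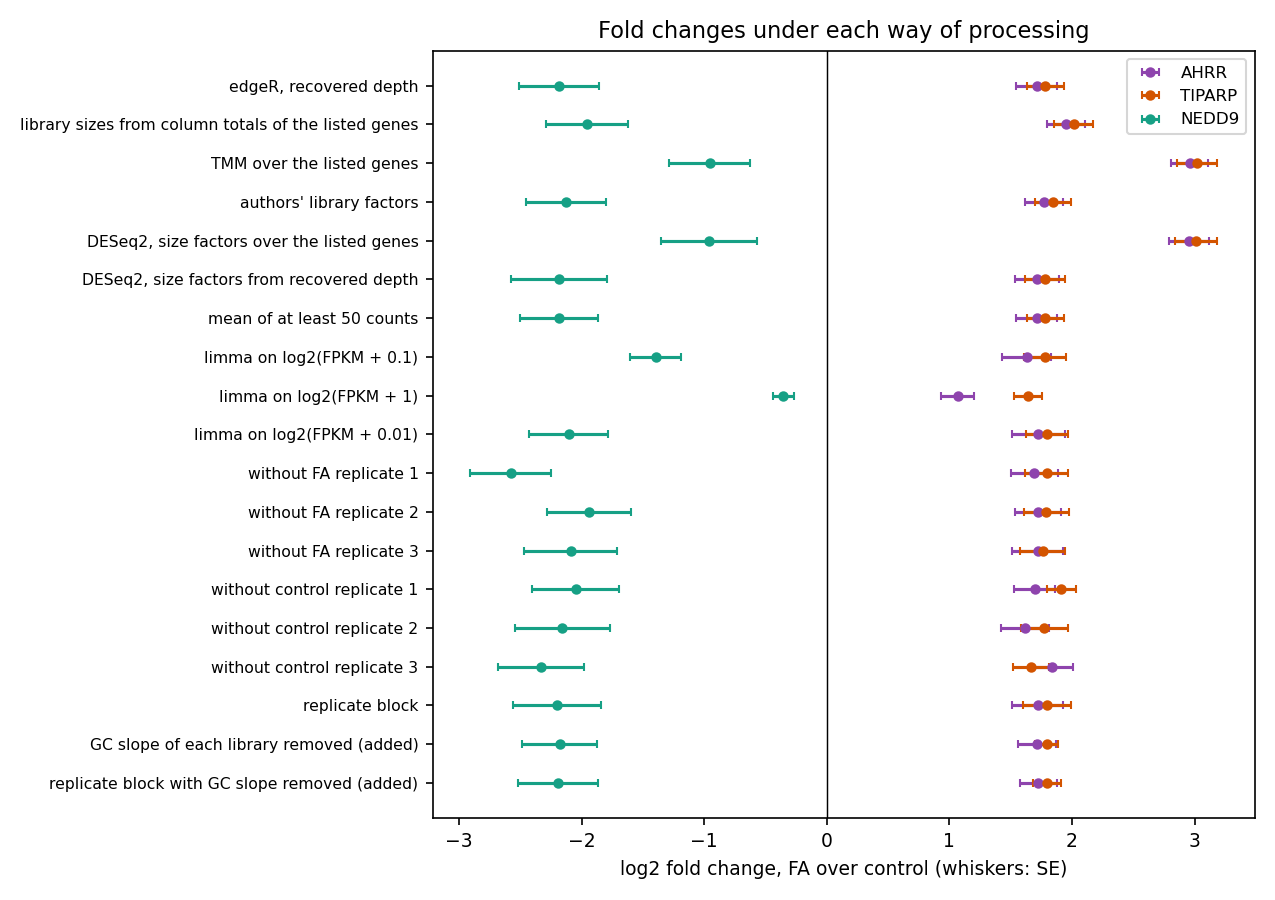
Log2 fold change of FA over control (whiskers: SE) for AHRR, TIPARP and NEDD9 under the main edgeR refit and 18 alternatives, 1 per line. AHRR and TIPARP stay on the positive side and close to each other except with 1 added to FPKM (1.07 and 1.64), and NEDD9 stays negative, between -2.58 and -0.35.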

How the data were processed

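RNA of 3 FA and 3 control libraries was captured on oligo(dT) beads, fragmented, copied to cDNA and amplified, per the labels' protocols. The authors deposited 1 table of called genes, which per the file headers holds raw read counts, FPKM values, an FDR (an adjusted p-value) and a log2 fold change of FA over control. The smallest absolute log2 fold change was 1.00 and the largest FDR 0.00977. Per the submitters' processing notes the genome build was GRCh38. The sources used here name no aligner, counter or test.

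Relative depth came from the ratio of counts to FPKM over 180 genes reaching 200 counts in each library, and its scale from 16 genes with a single annotated transcript. The refit of all 459 genes' counts used the quasi-likelihood test of edgeR 4.0.16 in R 4.3.3, with Benjamini-Hochberg adjustment over 459 genes and a threshold of 0.05. Standard errors are the absolute log2 fold change over the square root of F. On simulated counts for the 459 genes the refit called 94% of 100 genes changed 2-fold, 100% of 100 changed 3-fold and 2.32% of 259 unchanged genes. The simulated spread was estimated from these selected genes and the depths were known, so these rates need not hold for the deposited counts. Alternatives used DESeq2 1.42.0 and limma 3.58.1 on log2(FPKM + pseudocount). The ratio test used scipy 1.17.1 with 0.5 counts added. GC content is the mean over GENCODE 29 transcripts, known for 399 of 459 genes (86.9%). All 399 identifiers matched that release with the same symbol. The other 60 gene models carry no identifier.

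The genes named are the 3 members, the 5 most like each, listed genes of the fixed lists and CYP1A1. Members and lists were chosen with earlier results of these data known.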

Additional observations from a re-analysis of the deposited data

How the results depend on the processing

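In 16 alternatives of scaling, test, filter, pseudocount, replicates and pairing, AHRR, TIPARP and NEDD9 kept their direction and an adjusted p under 0.05. They did so too in 2 with GC slopes removed, which were added after seeing the data. The GC slopes sum to 0 within each group, so those 2 cannot move a difference between mean log2 values. They moved the edgeR fold changes only slightly and say nothing of the stability of the group difference. The listed genes were selected on this same comparison, so a kept call is not particular to these members. All 459 were also called without any single library and with the replicate block, and 455 to 458 with limma on FPKM. Leaving out single libraries gave log2 fold changes of 1.62 to 1.83 for AHRR, 1.67 to 1.91 for TIPARP and -2.58 to -1.94 for NEDD9. The AHRR to TIPARP difference ranged from -0.21 to 0.16 and changed sign without control 3 (0.16), since that library alone held the highest ratio. Scaling over the listed genes raised AHRR and TIPARP to 2.96 and 3.02 with TMM. It lowered the listed genes called from 459 to 198 with TMM and 204 with DESeq2 (117 higher in both, with 81 and 87 lower), because it centres the table on its mostly lower genes. With the replicate block the values were 1.72 for AHRR, 1.79 for TIPARP, -2.20 for NEDD9 and -0.07 for the ratio. Deviations of same-numbered libraries correlated at -0.01, 0.08 and -0.16, against -0.15 to 0.18 in pairs with unlike numbers. These correlations cannot show how the libraries were prepared, and the control libraries were tilted along GC content, so pairing by number is not settled. NEDD9, at 12 to 26 counts with FA, is the value most limited by depth. Since the groups do not overlap in any of the 459 genes, leaving out a library could not turn a direction.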
